A study of Mus musculus with 14 samples.

Results

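The genes described here are 47 fibroblast matrix and stromal genes other than collagens, measured on Agilent mouse arrays in mast cells grown with and without a fibroblast layer. A probe was taken when its gene name in the scanner files was 1 of the 47 names, which gave 84 of 41174 probes, and all 47 genes were on the array. Of the 47, 45 had a probe well above background on at least 3 of the 14 arrays and were tested among 15895 genes. The other two, Ctgf (connective tissue growth factor, now Ccn2) and Thy1 (a surface glycoprotein used to mark fibroblasts), were well above background on no array. The mice were labelled Pla2g3 knockout (Pla2g3-/-) or Pla2g3 wild-type (Pla2g3+/+), both given the same strain label, which joins C57BL/6 and 129Sv-N3. The Pla2g3 product is the secreted group III phospholipase A2, which releases fatty acids from phospholipids. All cells were bone marrow-derived mast cells (BMMCs), grown for 4 to 6 weeks with IL-3 and labelled immature. For coculture they stood for 4 days (96 h) on Swiss 3T3 cells, a mouse fibroblast line, with 100 ng/ml stem cell factor (SCF), a growth factor that the labels give for the cocultured cells alone. The harvest was trypsinized and replated, and the cells that did not adhere were kept. The groups were knockout cocultured cells (3 arrays), wild-type cocultured cells (4), knockout BMMCs (4) and wild-type BMMCs (3). The labels do not say whether the arrays of a group came from separate mice, so a p-value reflects only how far these samples spread, which may be technical. Coculture differs from BMMC culture in the fibroblasts, the SCF, the time and the trypsin harvest with replating together, which cannot be told apart.

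Fibroblasts make and remodel extracellular matrix. They secrete collagens together with the chaperone, protease enhancer and oxidases that fold, trim and crosslink them, and they surround these fibres with small proteoglycans, fibronectin, fibrillin, fibulins and matricellular proteins that tune cell adhesion. Receptors such as those for platelet-derived growth factor mark the lineage, and contractile genes such as Acta2 mark activated fibroblasts and smooth muscle. Connective tissue mast cells live embedded in such a stroma, and coculture on fibroblasts with SCF is a standard way to mature BMMCs toward that type.

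Each level is a log2 signal from which the array's own 75th percentile was subtracted, and a level of 0 equals it. A level belongs to its probe, so it can be followed between arrays but not set against the level of another probe. The scanner software marks each spot as well above background or not. In the harvest as a whole, 8 of 8 tested mast cell markers, among them Kit and Fcer1a, were well above background on all 14 arrays. The collagen chains Col3a1 and Col1a1, which fibroblasts make, led the rise among 17 tested chains. Both were well above background on 7 of 7 cocultured and 0 of 7 BMMC arrays. Other chains were found in BMMCs too, Col1a2 on 3 of 7 BMMC arrays and Col18a1, Col7a1 and Col15a1 on 7 of 7. The labels give over 99% mast cells by flow cytometry after coculture and over 97% before. The Pla2g3 probe stood at -3.13, -1.70 and -1.88 in knockout and -4.23, -3.15, -4.07 and -2.13 in wild-type cocultured cells, and at -1.37, -1.27, -1.56 and -1.92 in knockout and -3.71, -4.63 and -2.91 in wild-type BMMCs. It was not lower in the arrays labelled knockout, and in BMMCs every knockout array was above every wild-type array. Whether the probe lies in the deleted part is not given in the sources used here, so it does not check the genotypes. The arrays sat on 4 slides, and slide 4, scanned on another date, held knockout cocultured 3, wild-type cocultured 3 and knockout BMMC 4. Both cocultured arrays of slide 4 stood with the other genotype for most of these genes, so the counts and medians that rest on them are given with and without them. Whether their labels or samples were exchanged was not tested, and every value given for a genotype of cocultured cells carries that doubt.

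Most of the members were detected on cocultured arrays and not on BMMC arrays. Above background on all 7 cocultured arrays and on no BMMC array were 9 members, namely Dcn, Igfbp7, Loxl1, Nid1, Ptn, Ptx3, Serpinh1, Steap1 and Vcam1. A further 18 were above background on 3 to 6 cocultured arrays and on no BMMC array, among them Fn1, Postn, Pdgfra, Prrx1 and Twist1. Another 10, among them Sparc and Fbn1, were above background on some arrays of both kinds. A further 6, Acta2, Igfbp5, Lamc1, Pcolce, S100a4 and Tagln, were above background on all 14 arrays, and Igfbp4 and Cnn1 on BMMC arrays alone (6 and 3 of 7). These 8, and the 10 found on some arrays of both kinds, were thus measured on BMMC arrays, which had no fibroblast layer. Among the 10, Igfbp6, Loxl2, Pdgfrb and Twist2 were above background on 6 of 7 BMMC arrays. Of the 8, Lamc1, Pcolce and S100a4 were higher on every cocultured array than on any BMMC array, a pattern of 6.44% of all genes. Between 23 and 42 of the 45 tested members were above background on the knockout cocultured arrays and 31 to 43 on the wild-type cocultured arrays, against 9 to 13 on knockout BMMC arrays and 12 to 14 on wild-type BMMC arrays. In bulk RNA, fewer cells of a type and less RNA per cell cannot be told apart.

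**Figure D1:**
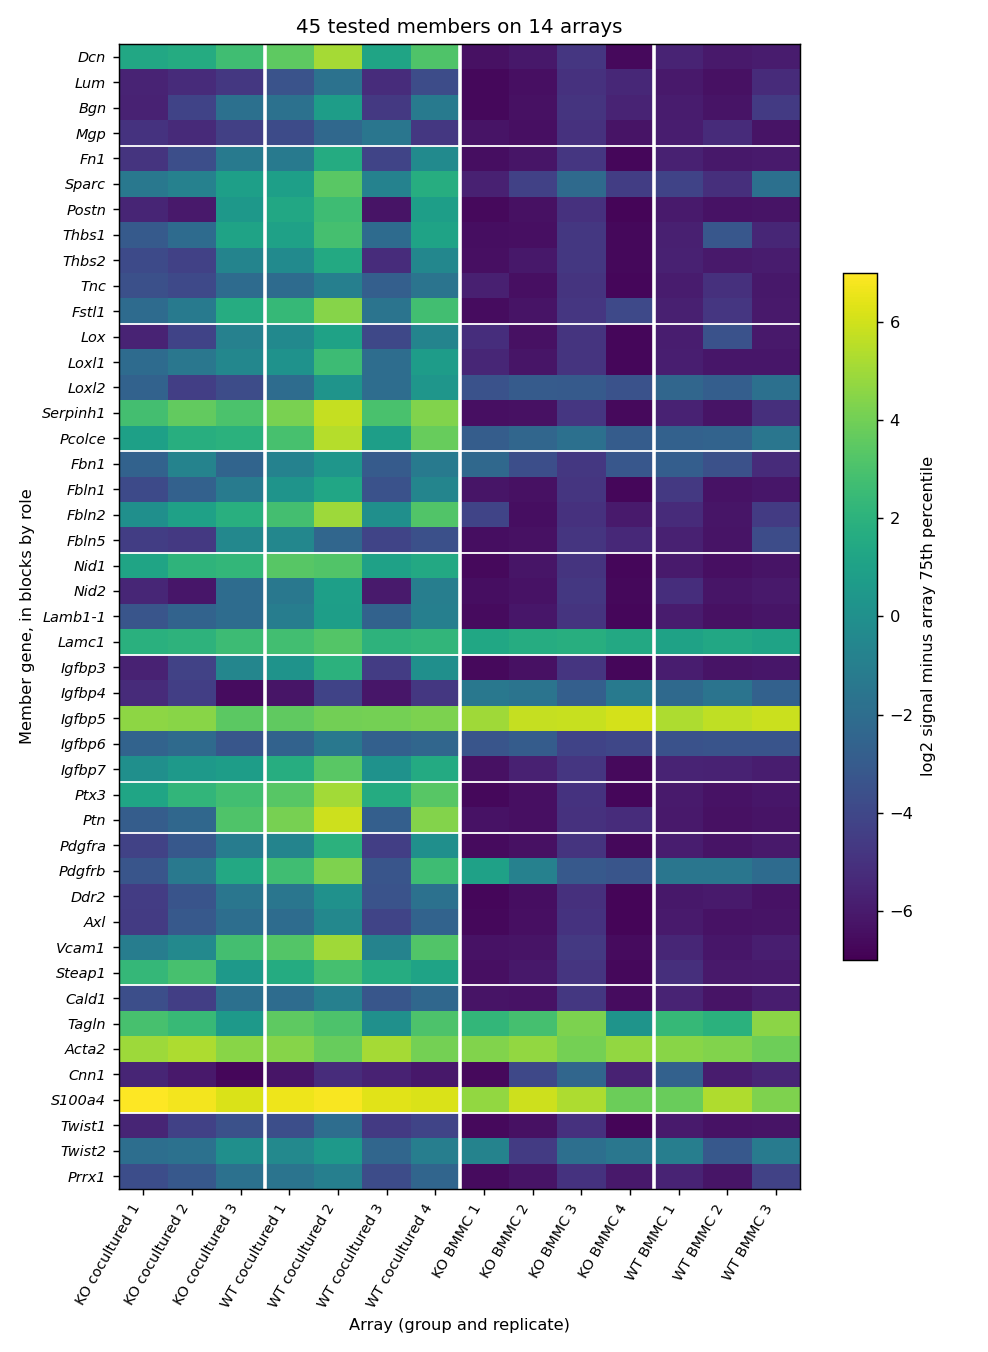
Level of each of the 45 tested members (rows, in blocks by role) on the 14 arrays (columns, knockout cocultured, wild-type cocultured, knockout BMMC, wild-type BMMC), as log2 signal minus the array's 75th percentile, on a linear colour scale. Rows are different probes and are not comparable with each other. The 7 cocultured columns are brighter than the 7 BMMC columns in most rows, and knockout cocultured 1 and 2 and wild-type cocultured 3 are darker than the other cocultured columns.

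The coculture difference, averaged over both genotypes, asks how these transcripts differed between the harvest of a coculture and BMMCs. Of the 45 tested members 37 rose, 2 fell (Igfbp4 and Igfbp5) and 6 did not pass (Loxl2, Pdgfrb, Tagln, Acta2, Cnn1 and Twist2), at an adjusted p under 0.05 in limma. Over all 15895 genes the same test called 28.9%, with 15.4% higher and 13.5% lower. The filter bears on this count: 27 of the 45 passed it through cocultured arrays alone, where they are high, and all 27 rose, so their rise was largely fixed by the filter. Of the 16 that passed it through both kinds of array, 10 rose, 1 fell and 5 did not pass, and of the 2 that passed through BMMC arrays alone, 1 fell and 1 did not pass. In 24 of the 45 members all 7 cocultured arrays lay above all 7 BMMC arrays, a pattern of 6.44% of all genes, and in 2 members all lay below, as in 5.81% of all genes. For a gene that no array of a group detected, the fold is a bound, written "at least". Its dim side is, per array, the faintest signal that still counted as well above background, or the probe's own signal if brighter. The median fitted log2 difference was 3.45 over the members and 0.05 over all genes, and with such genes set to their bound 1.89 over the members and 0.04 over all genes. Both medians are given for the role groups. The limit set by the filter applies to each role group and list below. Each count there stands beside the same shares over all genes, 15.4% higher and 13.5% lower. Postn, Nid2, Lum and Fbln5 lost the call when single arrays were left out, and 12 members lost it under another background correction (normexp), as set out at the end. Normexp also gave smaller log2 differences for members that kept the call, among them Serpinh1 (4.47), Dcn (3.39), Nid1 (3.05) and Loxl1 (1.48), so the bounds hold for the processed signal alone.

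Serpinh1 (the collagen chaperone HSP47), probe at chr7:106493971-106494030 on mm9, stood at 2.81, 3.63 and 3.04 on the 3 knockout cocultured arrays and at 4.19, 5.77, 2.95 and 4.33 on the 4 wild-type cocultured arrays. Knockout BMMCs were at -6.44, -6.34, -4.76 and -6.65 and wild-type BMMCs at -5.68, -6.26 and -5.13, none of them above background. The groups were far apart, and Serpinh1 was at least 208-fold higher in cocultured cells (adjusted p = 1.65e-08). Pcolce, which enhances the cutting of the procollagen C-propeptide, stood at 0.95, 1.77 and 1.93 in knockout and 2.94, 5.45, 0.84 and 3.75 in wild-type cocultured cells. It was also measurable in BMMCs, at -2.88, -2.39, -1.81 and -2.91 in knockout and -2.63, -2.54 and -1.52 in wild-type cells. Every cocultured array lay above every BMMC array, with a log2 difference of 4.76 (SE 0.56, adjusted p = 5.80e-05). Loxl1, a lysyl oxidase that crosslinks elastic fibres (chr9:58138570-58138629), stood at -2.11, -1.46 and -0.54 in knockout and 0.15, 2.57, -2.01 and 0.73 in wild-type cocultured cells and was at least 11-fold higher than in BMMCs (adjusted p = 2.69e-05). Lox, the founding member of that family, rose by 3.20 (SE 0.86), but its 7 cocultured arrays ran from -5.59 to 1.08 and overlapped the BMMC arrays. Among BMMC arrays Lox was above background on wild-type BMMC 2 alone. Loxl2 did not pass (0.58, SE 0.44, adjusted p = 0.355), with -2.62, -4.41 and -3.74 in knockout and -2.06, 0.24, -1.97 and 0.36 in wild-type cocultured cells against -3.49, -2.96, -3.06 and -3.48 in knockout and -2.40, -2.84 and -1.83 in wild-type BMMCs. Loxl2 was above background on 6 of 7 BMMC arrays, and its groups overlapped.

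Among proteoglycans and small matrix proteins 4 of 4 rose, against 15.4% of all genes, with a median of 2.43 as fitted and 0.57 at the bounds. All of them passed the filter through cocultured arrays alone, so their rise was largely fixed by it. Decorin (Dcn, chr10:96980233-96980292), which binds collagen fibrils and growth factors, stood at 1.40, 1.60 and 2.69 in knockout and 3.53, 5.13, 1.15 and 3.16 in wild-type cocultured cells. All 7 BMMC arrays were below background at -6.65 to -4.78, so Dcn was at least 92.6-fold higher (adjusted p = 3.09e-07). Biglycan (Bgn), its close relative, was above background on 4 of 7 cocultured arrays, at -5.67, -4.19 and -1.83 in knockout and -1.80, 0.77, -4.70 and -1.23 in wild-type cells, and was at least 2.21-fold higher (adjusted p = 0.0131). Lumican (Lum), another leucine-rich proteoglycan, passed as higher (adjusted p = 0.0269) and was above background on wild-type cocultured 1, 2 and 4 alone, and its bound did not exceed 1-fold. Mgp, the matrix Gla protein that inhibits calcification, passed as higher too (adjusted p = 0.00741), also with no bound above 1-fold. Its order over the arrays was unlike that of the rest, with -4.93, -5.35 and -4.37 in knockout and -3.83, -2.24, -1.5 and -4.71 in wild-type cocultured cells, so wild-type cocultured 3 was its highest array.

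Fibronectin and the matricellular and adhesive glycoproteins rose in 7 of 7 tested members, with a median of 4.16 as fitted and 1.93 at the bounds. Fstl1, a secreted follistatin-like glycoprotein (chr16:37835593-37835652), stood at -2.13, -1.26 and 1.66 in knockout and 2.39, 4.44, -1.60 and 2.74 in wild-type cocultured cells, against -6.55 to -3.91 over the 7 BMMC arrays (log2 difference 6.15, SE 0.87, adjusted p = 2.43e-04). Sparc, which binds collagen and calcium, rose by 4.37 (SE 0.75) and was above background on 7 of 7 cocultured and 2 of 7 BMMC arrays. Thbs1 and Thbs2 encode thrombospondins, which curb angiogenesis. Thbs1 was at -3.02, -2.12 and 1.11 in knockout and 1.0, 2.89, -2.10 and 1.11 in wild-type cocultured cells, a rise of 5.15 (SE 0.81, adjusted p = 5.18e-04). Thbs2 was at least 3.79-fold higher (adjusted p = 0.00583) and was above background on 4 cocultured arrays. Tenascin C (Tnc), an anti-adhesive protein of wounds, was at least 2.70-fold higher (adjusted p = 6.79e-05), and Fn1, fibronectin itself, at least 3.48-fold (adjusted p = 0.00287). Postn (periostin) ranged widest over the cocultured arrays. It stood at -5.58, -6.05 and 0.47 in knockout and 1.37, 2.65, -6.28 and 0.84 in wild-type cocultured cells, with 3 arrays at the level of BMMCs (-6.81 to -5.0) and 4 well above background. Postn exceeded BMMCs by at least 3.80-fold (adjusted p = 0.0320).

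The elastic fibre group rose in 4 of 4 members, with a median of 3.43 as fitted and 2.24 at the bounds. Fibulin 2 (Fbln2, chr6:91222118-91222177) stood at -0.03, 1.0 and 1.83 in knockout and 2.82, 4.95, -0.01 and 3.22 in wild-type cocultured cells against -6.48 to -4.13 in BMMCs, a log2 difference of 7.21 (SE 0.67, adjusted p = 9.20e-06). Fbln1 was at least 5.18-fold higher (adjusted p = 5.25e-04). Fbln5, needed for elastic fibre assembly, was at least 1.99-fold higher (adjusted p = 0.0210), with -4.46, -4.67 and -0.44 in knockout and -0.54, -2.39, -4.15 and -3.59 in wild-type cocultured cells. Fibrillin 1 (Fbn1), the microfibril backbone, was also found on 5 of 7 BMMC arrays. It rose by 2.12 (SE 0.58, adjusted p = 0.0156), with overlapping arrays.

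In the basement membrane group 4 of 4 rose, with a median of 3.54 as fitted and 1.59 at the bounds. Nid1 and Nid2 encode the nidogens, which link laminin to collagen IV networks. Nid1 (chr13:13604417-13604476) stood at 1.19, 2.13 and 2.25 in knockout and 3.34, 3.18, 1.02 and 1.46 in wild-type cells, with -6.76 to -4.91 on BMMC arrays, and was at least 64.7-fold higher (adjusted p = 7.00e-08). It ranged less than Nid2, which stood at -5.48, -6.16 and -2.04 in knockout and -1.37, 0.91, -5.98 and -1.01 in wild-type cocultured cells, below background on 3 of them. Nid2 exceeded its BMMC level by at least 1.68-fold (adjusted p = 0.0446). The laminin chain gene Lamb1-1 (now Lamb1) was at least 4.5-fold higher (adjusted p = 3.02e-05). Lamc1, the laminin γ1 chain, was present on every array, with 1.89, 2.04 and 2.61 in knockout and 2.74, 3.23, 2.07 and 2.22 in wild-type cocultured cells against 1.36, 1.64, 1.80 and 1.44 in knockout and 1.04, 1.39 and 1.11 in wild-type BMMCs. All 7 cocultured arrays lay above all BMMC arrays, and the rise was small (1.0, SE 0.21, adjusted p = 0.00334).

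The insulin-like growth factor binding proteins, which hold IGFs in the extracellular space, split by direction: 3 of 5 rose and 2 fell. Igfbp7 (chr5:77778355-77778414) was at least 32.7-fold higher, with 7 cocultured arrays at 0.00 to 3.43 against -6.63 to -4.77 (adjusted p = 4.61e-07). Igfbp3 was at least 3.81-fold higher (adjusted p = 0.00607), and Igfbp6 rose by 1.05 (SE 0.27) and was above background on 7 cocultured and 6 BMMC arrays. Igfbp4 (chr11:98913334-98913393) went the other way. It was above background on no cocultured array (-5.26, -4.41 and -6.52 in knockout and -6.19, -4.19, -6.14 and -4.74 in wild-type cells), against -1.38, -1.63, -2.74 and -1.26 in knockout and -2.20, -1.60 and -2.63 in wild-type BMMCs, at least 4.12-fold lower (adjusted p = 8.86e-05). Igfbp5 (chr1:72904829-72904888) was bright everywhere and fell to 4.63, 4.51 and 3.48 in knockout and 3.56, 4.03, 4.06 and 4.22 in wild-type cocultured cells, against 5.0, 5.76, 5.80 and 6.08 in knockout and 5.28, 5.66 and 5.86 in wild-type BMMCs. No cocultured array reached a BMMC array, and the difference was -1.54 (SE 0.24, adjusted p = 4.29e-04). A second probe for each of both genes fell too, with an adjusted p of 2.38e-04 for Igfbp4 and by 1.61 (SE 0.31) for Igfbp5.

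Ptx3 and Ptn, secreted proteins outside the matrix proper, both rose. Ptx3 (pentraxin 3, a soluble pattern recognition protein that also organises hyaluronan matrix) stood at 1.25, 2.21 and 2.74 in knockout and 3.36, 5.08, 1.60 and 3.34 in wild-type cocultured cells, at least 101-fold above BMMCs (adjusted p = 1.17e-07). With quantile normalization another Ptx3 probe, brighter in BMMCs, stood for the gene and gave a log2 difference of 2.20. Ptn (pleiotrophin, a heparin-binding growth factor, chr6:36691386-36693332) was above background on 7 of 7 cocultured arrays, yet split between -2.86, -2.30 and 3.13 in knockout and 4.13, 5.91, -2.78 and 4.38 in wild-type cells. It was at least 33.8-fold higher than in BMMCs (-6.43 to -4.99, adjusted p = 0.00112).

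Of the receptors and surface proteins 5 of 6 tested rose, with a median of 4.05 as fitted and 2.02 at the bounds. Steap1, a membrane protein of a metalloreductase family (chr5:5736369-5736428), stood at 2.34, 2.93 and 0.60 in knockout and 1.63, 2.87, 1.65 and 1.1 in wild-type cocultured cells and was at least 57.5-fold higher (adjusted p = 1.24e-07). Vcam1, the vascular cell adhesion molecule that binds α4 integrins, was at -1.05, -0.40 and 2.84 in knockout and 3.24, 4.99, -0.75 and 3.18 in wild-type cocultured cells, at least 46.0-fold higher (adjusted p = 3.34e-05). Ddr2, a receptor tyrosine kinase for fibrillar collagen, was at least 2.96-fold higher, Axl, a receptor for Gas6, at least 2.32-fold and Pdgfra, a receptor for platelet-derived growth factor, at least 4.46-fold. The adjusted p was 2.96e-04 for Ddr2, 5.42e-04 for Axl and 0.00178 for Pdgfra. Pdgfrb, the paired receptor, did not pass (1.88, SE 1.15, adjusted p = 0.247). It spread widely, with -3.33, -1.35 and 1.44 in knockout and 2.73, 4.27, -3.30 and 2.63 in wild-type cocultured cells against 1.02, -0.85, -3.09 and -3.29 in knockout and -1.52, -1.5 and -2.08 in wild-type BMMCs, so that its highest BMMC array exceeded 3 cocultured arrays.

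In the contractile and cytoskeletal group 2 of 5 were higher and 3 did not pass. The median of 0.28 is that of Acta2 as read by its brightest probe, and other Acta2 probes, described further on, rose. S100a4, a calcium-binding protein also made by many leukocytes (chr3:90409842-90409902), was at 7.07, 6.74 and 6.23 in knockout and 6.66, 6.86, 6.39 and 6.23 in wild-type cocultured cells against 4.71, 5.95, 5.27 and 3.86 in knockout and 3.82, 5.34 and 4.30 in wild-type BMMCs. Every cocultured array lay above every BMMC array (log2 difference 1.89, SE 0.33, adjusted p = 0.00104), and the 7 cocultured arrays spanned 0.85, the narrowest range of the 45 members. Cald1, the actin-binding caldesmon, was at least 2.37-fold higher (adjusted p = 2.37e-04). Tagln (transgelin) gave -0.49 (SE 0.73, adjusted p = 0.664), Acta2 (smooth muscle α-actin) 0.28 (SE 0.23, adjusted p = 0.407) and Cnn1 (calponin 1) an adjusted p of 0.175. Cnn1 was above background on knockout BMMC 2 and 3 and wild-type BMMC 1 alone. Of the mesenchymal transcription factors Prrx1 was at least 2.70-fold higher (adjusted p = 4.75e-04), and Twist1 passed as higher (adjusted p = 0.00309) with no bound above 1-fold. Twist2 did not pass (0.93, SE 0.65, adjusted p = 0.313) and was above background on 7 cocultured and 6 BMMC arrays.

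Genes outside the 47 that share these roles were read from lists, whose counts stand beside 15.4% higher and 13.5% lower over all genes. As for the members, a gene above background on no BMMC array passed the filter through cocultured arrays alone. The counts leave out genes that were not tested. Of the genes on the array, 17 of 20 collagen chains and 4 of 8 other leucine-rich proteoglycans were tested. So were 8 of 12 other mesenchymal transcription factors and 6 of 14 other fibroblast surface genes. Collagen chains rose in 12 of 17 tested, with a median of 3.85 as fitted and 2.60 at the bounds, led by Col3a1 (at least 155-fold, adjusted p = 5.13e-06) and Col1a1 (at least 107-fold, adjusted p = 7.90e-06). Most of the chains that rose were above background on no BMMC array, so their rise was largely fixed by the filter. The summed collagen signal, relative to each array's 75th percentile, was 10.3, 13.8 and 47.7 on the knockout cocultured arrays, 86.0, 331, 22.3 and 103 on the wild-type cocultured arrays and 0.858 to 1.64 on BMMC arrays. Other collagen processing genes gave 2 higher, 4 lower and 6 not passing of 12. Fkbp10 (at least 9.77-fold) and Pcolce2 (at least 4.44-fold) rose beside Serpinh1 and Pcolce. In contrast P4ha1, Crtap, Leprel2 and Plod3, which modify or fold collagen chains and were above background on all 14 arrays, fell. Other elastic fibre genes gave 3 higher and 1 lower of 7 (Efemp2 by 5.15 on the log2 scale, Ltbp2 at least 8.25-fold), and other matricellular genes 4 higher and 1 lower of 9, with Wisp1 at least 8.74-fold higher and Nov, a CCN family member, at -3.57 (SE 0.49). Other basement membrane genes rose in 4 of 7 (Lama4 at least 3.43-fold, Hspg2 2.67 log2) and other leucine-rich proteoglycans in 2 of 4 (Prelp at least 3.33-fold, Ogn at least 5.25-fold). IGF ligand and receptor genes rose in 2 of 4 (the ligand Igf2 3.43 log2, the receptor Igf2r 2.65 log2). Other contractile genes gave 3 higher and 1 lower of 10 (Tpm1 2.48 log2, Cnn3 3.78 log2), mesenchymal transcription factors 5 higher and 1 lower of 8 (Prrx2 at least 15.7-fold, Snai2 at least 3.88-fold) and other fibroblast surface genes 2 higher of 6 (Cd248 4.55 log2, Fgfr1 2.54 log2).

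Markers of mast cells and of other cell types were counted the same way. Of those on the array, 8 of 9 mast cell and 9 of 11 macrophage markers were tested. So were 4 of 9 endothelial, 3 of 7 epithelial and 3 of 6 adipocyte and chondrocyte markers. Of 8 mast cell markers, Hdc (3.52 log2) and Tpsb2 (1.48) rose and 6 did not pass. Of 9 macrophage markers 2 rose (Cd14 3.31, Cd68 2.86), 2 fell (Fcgr1 -2.89, Marco -1.27) and 5 did not pass. Of 4 endothelial markers 0 passed in limma (lowest adjusted p = 0.0609, Tek). Of 3 epithelial markers Cdh1 fell (-3.76) and 2 did not pass, among them Krt5 (0.06). Of 3 adipocyte and chondrocyte markers Sox9 rose (at least 3.49-fold) and 2 did not pass, among them Fabp4 (-1.23). The summed macrophage signal was 58.4 on wild-type BMMC 2, the BMMC array on which Lox and Thbs1 were above background, against 3.99 to 16.1 on the other BMMC arrays, and its part in both levels was not tested.

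Within each genotype the coculture difference had the same direction for nearly all members. In knockout cells 21 rose, 2 fell and 22 did not pass, with a median of 2.75 as fitted (all genes 0.10) and 0.90 at the bounds. Over all genes 14.7% were called, 8.58% higher and 6.10% lower. In wild-type cells 33 rose, 2 fell and 10 did not pass, with a median of 4.14 as fitted (all genes -0.01) and 2.86 at the bounds. Over all genes 12.8% were called, 6.47% higher and 6.31% lower. Serpinh1 was at least 137-fold higher in knockout cells (adjusted p = 2.06e-06) and at least 315-fold in wild-type cells (adjusted p = 8.70e-07). Nid1 was at least 55.5-fold higher in knockout and at least 75.3-fold higher in wild-type cells, and Steap1 at least 59.4-fold in knockout and 55.6-fold in wild-type cells. The 21 members that rose in knockout cells also rose in wild-type cells, with S100a4, measured in every group, at 1.73 (SE 0.46) in knockout and 2.05 (SE 0.46) in wild-type cells. Ptn did not pass in knockout cells (adjusted p = 0.0732) and was at least 119-fold higher in wild-type cells (adjusted p = 0.00493). Pdgfra, Fn1, Igfbp3, Thbs2, Bgn, Lox, Lum, Mgp, Fbn1, Lamc1 and Twist1 also rose in wild-type cells and did not pass in knockout cells. In wild-type cells Pdgfra was at least 9.25-fold and Fn1 at least 7.69-fold higher, with an adjusted p in knockout cells of 0.0702 for Pdgfra and 0.111 for Fn1. Postn, Nid2, Fbln5 and Igfbp6 passed in neither genotype taken alone, Postn with an adjusted p of 0.409 in knockout and 0.0597 in wild-type cells. None of these differences between genotypes passed the test of the difference itself, given further on. Igfbp4 and Igfbp5 fell in both genotypes, Igfbp5 by 1.46 (SE 0.34) in knockout and 1.63 (SE 0.34) in wild-type cells.

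**Figure D2:**
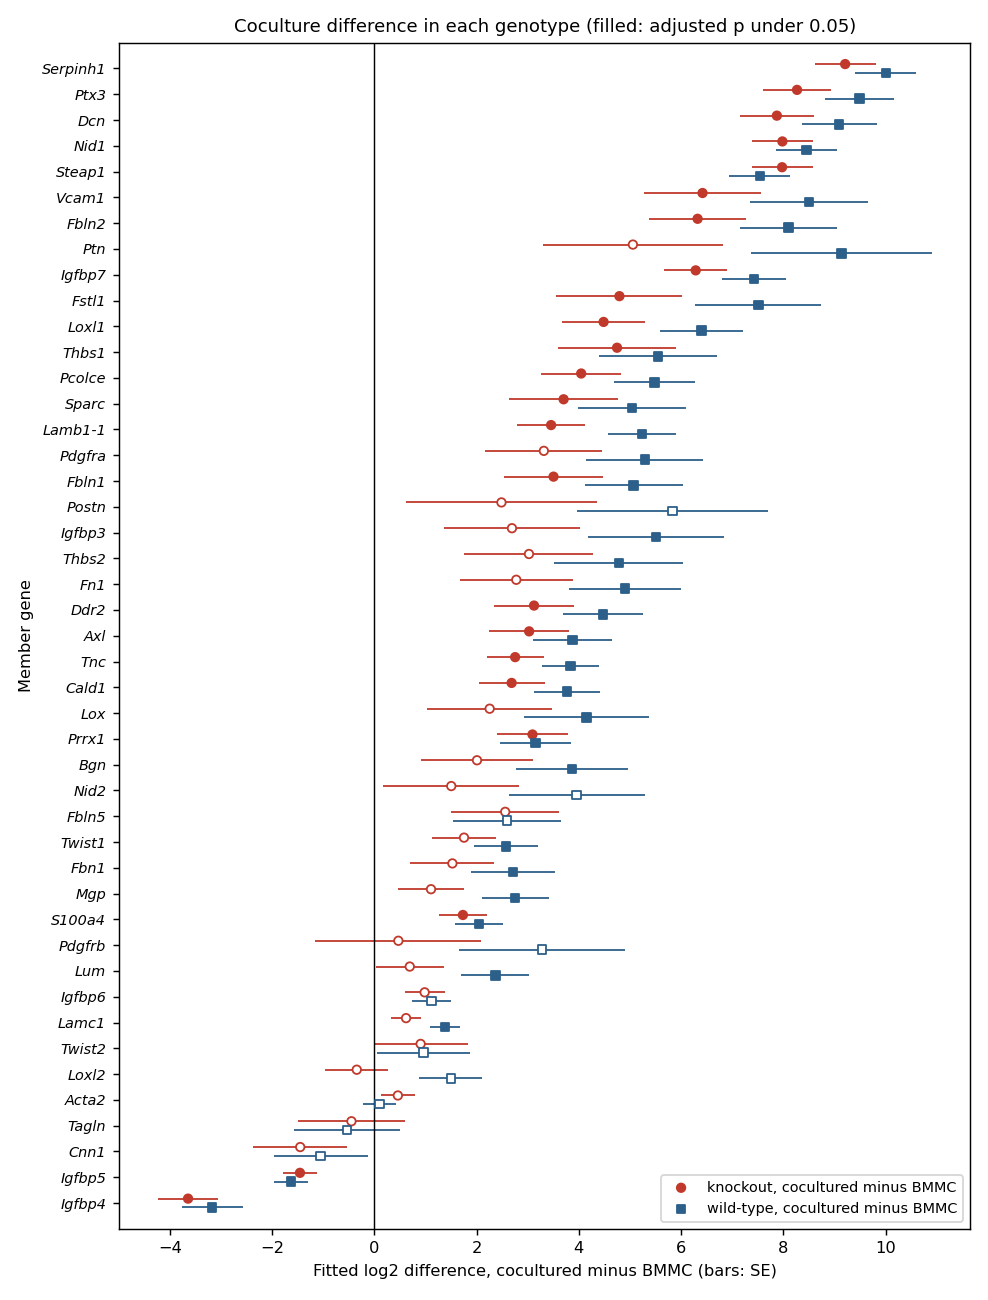
Fitted log2 difference, cocultured minus BMMC, for each of the 45 tested members in knockout cells (red circles) and wild-type cells (blue squares), with bars of 1 SE and filled symbols at an adjusted p under 0.05. Fitted values of members below background on all arrays of a group depend on the background and are no measured folds. Serpinh1 lies furthest right, and Igfbp4 and Igfbp5 are the members below 0 with filled symbols.

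The same direction held inside single slides. The median member difference, knockout cocultured minus knockout BMMC, was 2.14, 2.57 and 4.86 on slides 1, 2 and 4, with 39, 39 and 40 of 45 members above 0. Wild-type cocultured minus wild-type BMMC gave 4.57 and 5.53 on slides 2 and 3, with 42 and 41 of 45 above 0. Over all genes these medians lay between -0.10 and 0.19. The share of all genes above 0 was 57.4%, 56.8% and 54.5% in knockout cells on slides 1, 2 and 4. It was 51.9% and 44.2% in wild-type cells on slides 2 and 3. Without both cocultured arrays of slide 4 the average difference again gave 37 higher and 2 lower (36.7% of all genes called, 20.4% higher and 16.3% lower). The knockout difference then gave 24 higher and 2 lower (31.2% of all genes, 19.8% higher and 11.4% lower), with a median of 1.96 as fitted and 0.29 at the bounds. The wild-type difference gave 38 higher and 2 lower (23.0% of all genes, 10.3% higher and 12.7% lower), with a median of 5.14 as fitted and 3.59 at the bounds. Without these arrays Ptn also rose in knockout cells (adjusted p = 0.00201), and Fn1 again did not pass there (adjusted p = 0.0950). Postn and Nid2 then rose in wild-type cells (adjusted p = 4.57e-06 for Postn and 3.05e-04 for Nid2). Wild-type cocultured 3 stood at -6.28 for Postn and -5.98 for Nid2, so leaving it out raised both wild-type means. Both arrays were known to stand apart in these members when left out, so the calls without them are no independent test.

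The members varied far more between cocultured arrays than genes in general. The range over the 7 cocultured arrays had a median of 4.13 over the members and 1.58 over all genes. Of the members 23 of 45 ranged over more than 4, against 875 of 15895 genes. Some of these ranges, among them those of Postn, Nid2 and Igfbp3, ran down to signals not above background. Their size thus depends on the background. Over the 7 BMMC arrays the medians were 1.88 and 1.0. Dim members sat higher on knockout BMMC 3 than on other BMMC arrays, and the lowest signal called above background there was higher too (-2.72, against -4.49 to -3.40 on the other 13 arrays). The cocultured arrays fell into 2 sets. Knockout cocultured 1, knockout cocultured 2 and wild-type cocultured 3 were low, and knockout cocultured 3 and wild-type cocultured 1, 2 and 4 were high. The lowest 3 of the 7 were exactly that low set in 32 of 45 members, against 17.4% of all genes, and wild-type cocultured 2 was the highest array in 36 of 45, against 12.7% of all genes. The sets were named from levels on these same arrays, so both counts describe the split and are no test of it. The summed collagen signal split the same way, with 10.3, 13.8 and 22.3 in the low set and 47.7, 86.0, 331 and 103 in the high set, and its part in the members' split was not tested. Since the 7 arrays form separate sets of fewer than 6, no pooled correlation of members with collagens is given, and a relation within a genotype was not tested. The summed mast cell signal was 2442, 2126 and 1345 on the knockout and 1933, 1469, 1510 and 1731 on the wild-type cocultured arrays and did not follow the sets.

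**Figure D3:**
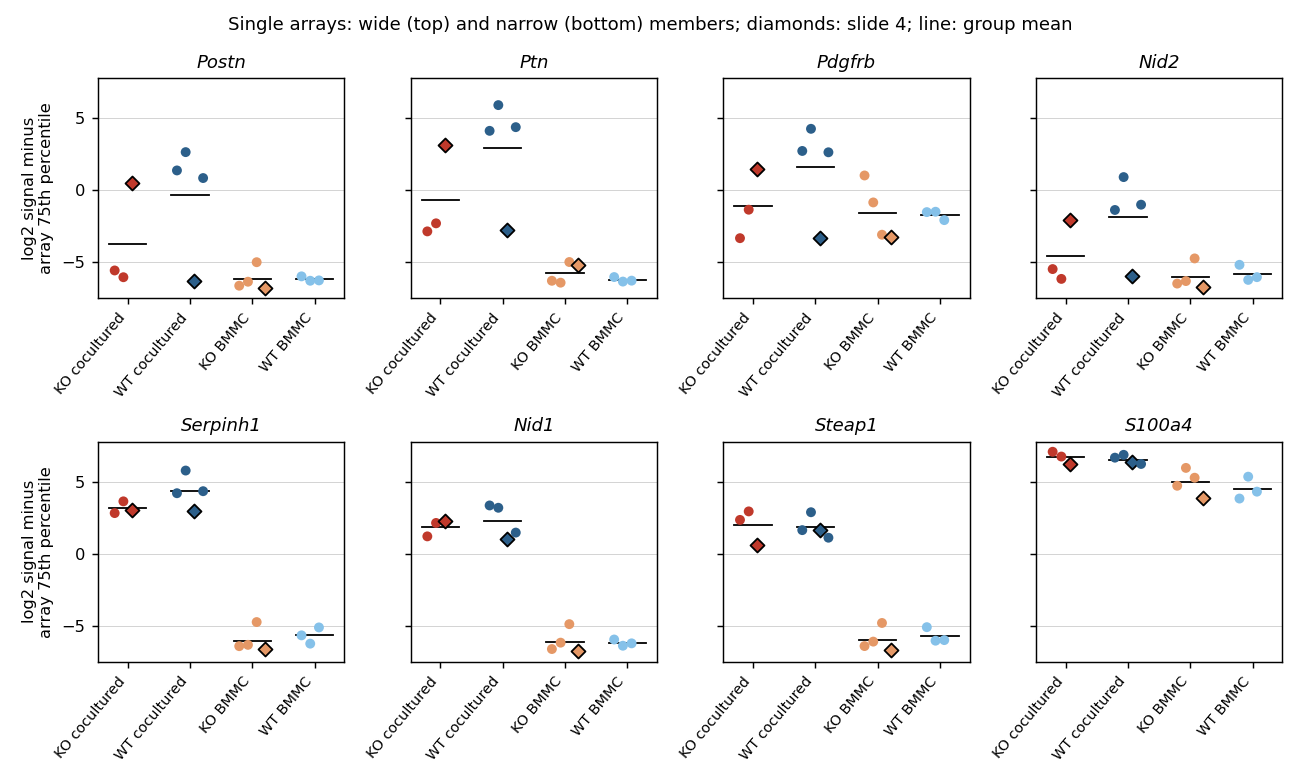
Level on each array (points, log2 signal minus the array's 75th percentile) of 4 members with a wide range over cocultured arrays (top: Postn, Ptn, Pdgfrb, Nid2) and 4 with a narrower one (bottom: Serpinh1, Nid1, Steap1, S100a4), by group from knockout cocultured on the left to wild-type BMMC on the right. Lines are group means and diamonds are arrays of slide 4. In the top row the diamond of knockout cocultured cells lies above its group and that of wild-type cocultured cells below it.

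The split was unequal between members. Postn ranged over 8.93, Ptn over 8.77, Igfbp3 over 7.62, Pdgfrb over 7.6 and Nid2 over 7.07 log2 units between the lowest and highest cocultured array. Nid1 ranged over 2.32, Steap1 over 2.33 and Serpinh1 over 2.96. Of these 8 members Pdgfrb alone was above background on any BMMC array. Steap1 ran against the sets, with knockout cocultured 3 and wild-type cocultured 4 and 1 lowest, and Serpinh1 was almost level between knockout cocultured 3 (3.04) and wild-type cocultured 3 (2.95). The nidogens differed, since Nid2 was below background on the low set and Nid1 was above 1 on all 7 arrays. A second Steap1 probe showed the same narrow range, at -0.16, 0.29 and -0.96 in knockout and -0.70, 0.77, -0.09 and -1.02 in wild-type cocultured cells. The other members whose lowest 3 arrays were not the low set were Mgp, Loxl2, Fbn1, Igfbp4, Igfbp5, Igfbp6, Tagln, Acta2, Cnn1 and S100a4.

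RefSeq promoter sequences (GRCm38.p6, 250 bases before to 50 after the start) matched 32 of the 47 genes. Dcn, Lum, Fn1, Lox, Loxl1, Loxl2, Thy1, Pdgfrb, Nid2, Thbs1, Mgp, Ctgf, Tagln, Vcam1 and Lamc1 had no entry. Windows are shown for members that had an entry and were above background on all 7 cocultured and no BMMC arrays. Among these, Ptn and then Ptx3 had the widest range over cocultured arrays, and Nid1 and then Steap1 the narrowest. Vcam1 (6.04), Loxl1 (4.68) and Dcn (3.98) ranged wider than Ptx3 (3.83) but had no entry. Capitals mark matches on either strand to 5 motifs, and no matches overlapped in the windows shown. The box bound by general transcription factors near many starts was searched as TATAAA. The core of sites for TEAD factors was searched as CATTCC. The core for the AP-1 dimer was searched as TGANTCA. The box that Sp1 binds was searched as GGGCGG. The fifth was the CArG box, the motif of serum response factor. The windows lie at chr6:36810130-36810429 (minus strand) for Ptn, chr3:66219637-66219936 (plus) for Ptx3, chr5:5749268-5749567 (minus) for Steap1 and chr13:13437352-13437651 (plus) for Nid1.
Ptn: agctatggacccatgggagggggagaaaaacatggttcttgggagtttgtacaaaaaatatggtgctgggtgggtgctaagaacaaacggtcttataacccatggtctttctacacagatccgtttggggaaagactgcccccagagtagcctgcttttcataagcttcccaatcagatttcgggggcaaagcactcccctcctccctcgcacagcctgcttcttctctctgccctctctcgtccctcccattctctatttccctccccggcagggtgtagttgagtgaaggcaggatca
Ptx3: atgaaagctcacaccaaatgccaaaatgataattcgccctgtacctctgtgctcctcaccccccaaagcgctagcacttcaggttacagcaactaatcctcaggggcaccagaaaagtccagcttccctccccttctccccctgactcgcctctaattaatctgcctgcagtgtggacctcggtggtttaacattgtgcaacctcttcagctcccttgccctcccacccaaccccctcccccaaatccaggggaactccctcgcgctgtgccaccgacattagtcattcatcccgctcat
Steap1: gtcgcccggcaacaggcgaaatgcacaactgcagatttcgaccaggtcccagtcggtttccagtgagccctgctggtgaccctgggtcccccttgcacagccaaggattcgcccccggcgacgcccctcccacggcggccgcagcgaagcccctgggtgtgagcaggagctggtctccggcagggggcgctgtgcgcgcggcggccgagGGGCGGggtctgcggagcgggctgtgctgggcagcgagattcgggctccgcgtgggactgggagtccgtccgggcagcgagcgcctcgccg
Nid1: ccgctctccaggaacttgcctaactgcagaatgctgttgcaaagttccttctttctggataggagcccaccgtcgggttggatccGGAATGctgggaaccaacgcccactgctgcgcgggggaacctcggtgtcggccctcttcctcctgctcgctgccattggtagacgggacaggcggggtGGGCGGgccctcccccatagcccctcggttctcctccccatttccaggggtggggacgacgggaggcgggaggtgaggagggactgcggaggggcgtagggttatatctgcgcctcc
The Ptn and Ptx3 windows held none of these motifs. Steap1 held 1 GGGCGG match, and Nid1 held 1 such match and 1 of CATTCC, read as its reverse complement. The GC share was 52.0% for Ptn, 54.7% for Ptx3, 72.3% for Steap1 and 64.7% for Nid1, with a median of 59.3% over the 32 member windows and 52.7% over all windows. GGGCGG stood in 16 of 32 member windows against 35.6% of 32817 windows, TATAAA in 7 of 32 against 13.6%, CATTCC in 6 of 32 against 14.7%, TGANTCA in 0 of 32 against 7.81% and the CArG box in 0 of 32 against 1.63%. A match is a description of letters and shows no binding.

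Knockout and wild-type cells were compared after coculture, which asks whether these transcripts differed with the Pla2g3 genotype. With all 7 arrays, limma called 0 of 45 members and 0% of all genes, with 5 members at an unadjusted p under 0.05 (607 of 15895 genes). The difference, knockout minus wild-type, was below 0 in 41 of 45 members (7434 of 15895 genes), with a median of -1.48 (all genes 0.04). It was above 0 in Acta2, Igfbp5, S100a4 and Steap1. Other probes read below 0 for Acta2 (-1.28 and -1.76), Igfbp5 (-0.29) and Steap1 (-0.02). Loxl2 and Mgp had the lowest p, with -2.73 (SE 0.62, adjusted p = 0.801) for Loxl2 and -1.81 (SE 0.65, adjusted p = 0.801) for Mgp. Within slides the direction turned. On slide 2 the knockout array was lower in 37 of 45 members (median -1.78), and on slide 4 it was higher in 36 of 45 (median 1.47). Both held for 35 of the 45, against 38.3% of all genes. Over all genes the knockout array was higher in 52.6% on slide 2 and 48.8% on slide 4. Nid1 too changed sign, with -1.22 on slide 2 and 1.23 on slide 4. Postn, below background on the lower array of each pair, was at -7.42 on slide 2 and 6.76 on slide 4, Ptn at -6.43 and 5.91, and Pdgfrb at -4.08 and 4.73. Loxl2 (-2.36 and -1.76) and Mgp (-1.52 and -2.87) were lower in the knockout array on both slides.

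**Figure D4:**
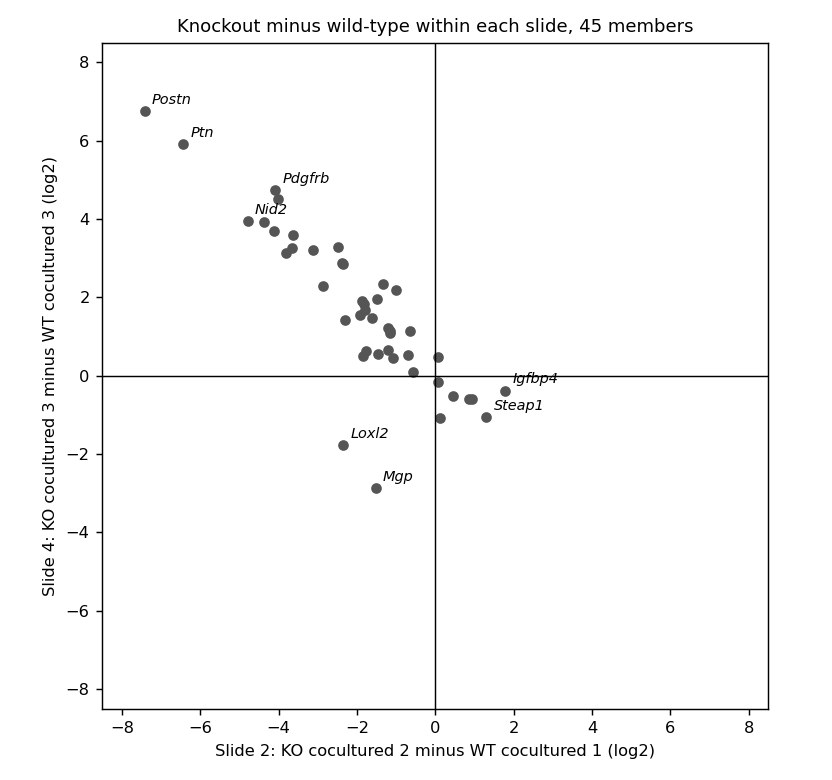
Knockout minus wild-type level (log2) of cocultured arrays within slide 2 (horizontal axis) and within slide 4 (vertical axis), 1 point for each of the 45 tested members, 1 array a genotype on each slide. Of the 45 points 35 lie at the upper left, and Loxl2 and Mgp lie below 0 on both axes.

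Without knockout cocultured 3 and wild-type cocultured 3, the same comparison called 27 members lower and 1 higher (Acta2) in knockout cells, where 24.9% of all genes were called, 9.61% lower and 15.3% higher. The Acta2 call rested on its brightest probe. On the same arrays its probe at chr19:34316060-34316119 went the other way, at -1.04 and -0.53 in knockout and 1.83, 2.58 and 1.22 in wild-type cells. The other Acta2 probe that rose with coculture was also lower on the knockout arrays. Ptn, above background on all of these arrays, then differed by -7.39 (SE 0.56, adjusted p = 1.97e-04). Postn, Igfbp3 and Nid2 were above background on neither remaining knockout array. Postn was at least 41.8-fold lower (adjusted p = 2.08e-04), Igfbp3 at least 22.2-fold (adjusted p = 0.00137) and Nid2 at least 9.67-fold (adjusted p = 0.00179). Serpinh1 (-1.55, adjusted p = 0.0978), Nid1 (-1.0, adjusted p = 0.275) and Steap1 (0.77, adjusted p = 0.381) did not pass. This leaves 2 knockout arrays and 3 wild-type arrays, and the 2 arrays were known to stand apart when they were left out.

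In BMMCs limma called 0 of 45 members and 0% of all genes, with 0 members at an unadjusted p under 0.05 (171 of 15895 genes), and the median difference was -0.08, against -0.09 over all genes. Within slides the median member difference, knockout minus wild-type BMMC, was -0.66, -0.07 and 1.14 on slides 1, 2 and 3, with 34 and 33 of 45 members below 0 on slides 1 and 2 and 32 of 45 above 0 on slide 3, which held knockout BMMC 3. Over all genes these medians were -0.02, -0.04 and -0.18, and 47.7%, 43.3% and 29.3% of all genes were above 0. Loxl2 (-0.89, SE 0.62, adjusted p = 1.0) and Lamc1 (0.38, SE 0.30, adjusted p = 1.0) had the lowest p. Thbs1 had the widest difference (-1.26, SE 1.15), with -6.48, -6.44, -4.75 and -6.68 in knockout and -5.76, -3.22 and -5.50 in wild-type BMMCs, which overlapped. The interaction, which asks whether coculture acted differently in the genotypes, likewise called 0 of 45 members and 0% of all genes, with 0 members and 123 genes at an unadjusted p under 0.05. Its median was -1.23 over the members and 0.12 over all genes, and Loxl2 (-1.84, SE 0.87, adjusted p = 0.995) and Lamb1-1 (adjusted p = 0.995) came first. Without both slide 4 cocultured arrays it called 13 members lower (12.1% of all genes called, 8.39% higher and 3.69% lower), namely Bgn, Fn1, Postn, Thbs2, Fstl1, Lox, Loxl1, Nid2, Igfbp3, Ptn, Pdgfra, Pdgfrb and Vcam1. Most of these were below background in all BMMCs, so no size of the interaction is given for them. These calls too rest on leaving out arrays that were known to stand apart.

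For a few genes different probes disagreed. The Acta2 probe that stands for the gene is the brightest of 5 and lay at chr19:34322995-34326249 on mm9, a span longer than its 60 bases. It is printed because the gene's result rests on it.
Acta2 probe: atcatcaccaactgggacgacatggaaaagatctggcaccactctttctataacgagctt
It was almost level, at 4.98, 5.30 and 4.52 in knockout and 4.45, 3.76, 5.12 and 4.09 in wild-type cocultured cells, and at 4.34, 4.75, 4.09 and 4.71 in knockout and 4.5, 4.34 and 3.92 in wild-type BMMCs. A second Acta2 probe at chr19:34316060-34316119 stood at -1.04, -0.53 and 1.21 in knockout and 1.83, 2.58, -1.02 and 1.22 in wild-type cocultured cells against -4.88 to -2.92 in BMMCs, and rose by 4.73 (SE 0.55, adjusted p = 5.55e-05), following the low and high sets. Another Acta2 probe, below background on all BMMC arrays, rose (adjusted p = 0.0153). The call for Acta2 thus depended on the probe, and which probe reads Acta2 alone was not tested. Ptx3 probes at chr3:66029200-66029259 and chr3:66029245-66029304 rose (adjusted p = 1.06e-07 and 1.82e-07), and the remaining probe, at chr3:66024210-66024234, by 2.16 (SE 0.50), and it was above background on all 7 BMMC arrays. For Igfbp3 the second probe did not pass (adjusted p = 0.0977) and was highest on wild-type cocultured 3 (-1.84), where the main probe was at -4.49. Second probes of Fn1 (adjusted p = 0.0770), Tnc (adjusted p = 0.0543) and Cald1 (adjusted p = 0.148) also did not pass.

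**Figure D5:**
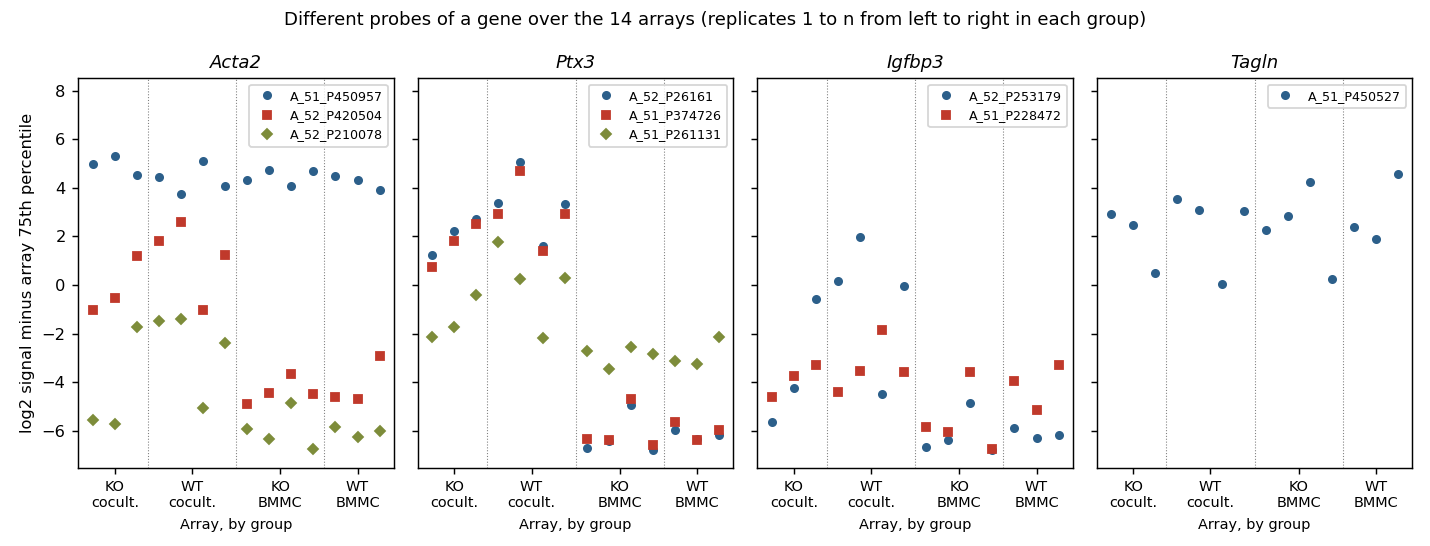
Level (log2 signal minus the array's 75th percentile) of different probes of Acta2, Ptx3 and Igfbp3, and of the Tagln probe, on the 14 arrays, by group from knockout cocultured on the left to wild-type BMMC on the right, replicates in number order within a group. The Acta2 probe A_51_P450957 is flat near 4 to 5 while A_52_P420504 is higher on cocultured arrays, and the Tagln points of slide 4 lie near 0.

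Tagln followed neither coculture nor genotype. It stood at 2.91, 2.46 and 0.51 in knockout and 3.55, 3.08, 0.04 and 3.06 in wild-type cocultured cells, and at 2.27, 2.86, 4.23 and 0.26 in knockout and 2.40, 1.92 and 4.58 in wild-type BMMCs. The 3 arrays of slide 4 were its lowest 3, a pattern of 1 of 45 members and 2.57% of all genes.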

How the data were processed

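Single-colour Agilent arrays were scanned and read with Agilent Feature Extraction 9.5.1.1, per the submitters' processing notes. The values used are the deposited processed signal intensities of 14 arrays, background-subtracted by that software, per the file headers, with probe positions on mm9. Each array's log2 intensity was set relative to its own 75th percentile, in place of a deposited log2 scale. Spots marked as outliers were left out, 23245 probes with a well-above-background mark on 3 or more arrays entered the fit (371 more were dropped for a missing value), and each gene was read from its probe of highest mean. The intensity at the 75th percentile was 65.9 to 171, and 42.6% to 55.9% of 41174 probes per array were well above background. The number of arrays limits the precision.

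One limma fit (limma 3.58.1, R 4.3.3) of 4 groups gave 6 contrasts, with Benjamini-Hochberg adjustment over 15895 genes and calls at an adjusted p under 0.05. The fit was tested on simulated data. The members and lists were chosen with earlier results of these data known. Named in full were the members with the lowest adjusted p of each role, those that fell or did not pass, those on all BMMC arrays, and for other lists up to 2 genes with the lowest adjusted p. The genes that fell among other collagen processing genes and among macrophage markers were picked after their values were seen. Replicate numbers paired knockout and wild-type BMMCs, which shared slides (correlations of deviations 0.20, 0.50 and 0.49), and the block changed no call there. Alternatives covered background correction, scaling, filters, probe summaries, slide, replicate number and arrays left out. Gene symbols are those of the array design. Promoter windows are from RefSeq, GRCm38.p6. Figures were drawn with matplotlib 3.10.9.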

Additional observations from a re-analysis of the deposited data

Results flagged for a closer look

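Tagln, the actin-binding transgelin, was measured at 0.043 on wild-type cocultured 3, far from the other wild-type cocultured arrays at 3.06 to 3.55 (log2 signal minus the array's 75th percentile). Its gap to the nearest array was over Dixon's 95% limit for 4 arrays (0.829 of the group's range). It was the only such case among 59 combinations of a member and a group of 4 arrays, and chance gives about 1 in 20.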

How the results depend on the processing

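Of 39 members called in the average coculture difference, 25 kept the call in every alternative that tested them and 14 lost it in at least 1. Normexp background correction gave 27 calls and lost 12, all dim or small (Lum, Bgn, Mgp, Fbn1, Nid2, Lamc1, Igfbp4, Igfbp6, Axl, Cald1, Twist1 and Prrx1). It gave 8 calls in knockout cells against 23, and 17 in wild-type cells against 35. Normexp was run with an offset of 50 added to every corrected signal. The 75th percentile of the processed signal was 65.9 to 171 over the arrays. The part of the offset in the lost calls and smaller differences was not tested. Log2 differences of members that kept the call were smaller with normexp, for example 3.23 for Ptn, 2.96 for Fbln2 and 2.21 for Igfbp7. Postn and Nid2 also lost the call with slide as a fixed block, with the replicate block and without most single arrays (Postn 3.11 and Nid2 2.10 without knockout cocultured 3). Lum lost it with the replicate block and without knockout cocultured 3, knockout BMMC 1 or 2 or wild-type BMMC 1 or 2, and Fbln5 with slide as a fixed block and without wild-type BMMC 2. Pdgfrb passed without wild-type cocultured 3 (2.69), and Acta2 with the mean of its probes (2.52). Without both cocultured arrays of slide 4, the comparison of knockout with wild-type cocultured cells gave 28 calls and the interaction 13, against 0 for each, and the Tagln average turned to 0.27. The Mgp difference between knockout and wild-type cocultured cells turned to 0.24 with normexp. Leaving out single arrays gave 35 to 40 calls in the average, 17 to 27 in knockout and 26 to 38 in wild-type cells, and 0 to 0 in the other 3 comparisons. The stricter filter tested fewer genes and gave 26 calls.

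With the replicate block the members called were 36 in the average, 17 in knockout and 31 in wild-type cells, and 0 in the others; outside BMMCs the correlations of deviations were -0.55 to 0.12, so those numbers were not taken as pairs. Over all genes, the average gave 4596 calls against 2333 with normexp. The knockout difference gave 2334, against 895 with normexp, 1399 with median scaling, 1398 with no filter, 1248 with the replicate block, 4967 without the slide 4 pair and as few as 1057 (without knockout cocultured 1). The wild-type difference gave 2031, against 876 with normexp, 1342 with the replicate block, 3658 without the pair and as few as 1112 (without wild-type BMMC 3). Knockout against wild-type cocultured cells gave 0 against 3954 without the pair, the interaction 0 against 1920, and knockout against wild-type BMMCs 0 against 1 with quantile normalization, 1 with the stricter filter and 2 without knockout BMMC 3. The comparison of members with collagens across cocultured arrays was not run, since the arrays form separate sets. Signal over background limits Lum, Twist1, Mgp and other members detected on few arrays.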
